A study of Mus musculus with 6 samples.

Results

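Genes of the Six-family transcription factors and their Eya co-activators were followed in cultured mouse muscle-derived cells. The genes were taken by name: Six2, Six4, Six5, Eya1, Eya2, Eya3 and Eya4, which are 7 of the 21485 gene identifiers that all 6 count matrices share. Six-family proteins bind DNA through a homeodomain and a Six-type domain, and Eya proteins, which do not bind DNA themselves, attach to the Six-type domain, act as co-activators and carry a phosphatase domain. In muscle precursors, Six-family and Eya proteins are known to act upstream of and together with the myogenic factors Myod1, which marks committed myoblasts, and Myog, which marks cells entering differentiation.

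Muscle-derived stem/progenitor cells (MDSPCs) are the slowly adhering fraction of dissociated skeletal muscle, obtained here through 6 rounds of replating over 5 days. Young mice gave 3 of the populations and old mice the other 3, and all were grown on collagen in proliferation medium with no other treatment and profiled by droplet 3′ single-cell RNA sequencing, with 16000 cells loaded per sample. The labels call the 3 samples of a group biological replicates, and the strain, genotype, sex and ages of the mice, or whether a population came from 1 animal, are not given in the sources used here. Each population is 1 sample, and p-values for old against young measure the spread between these samples. Those for cells compared within a sample measure how that difference varies between samples. Between 8674 and 12541 cells per sample were kept, at a median of 13001 to 19951 unique molecular identifiers (UMIs, tags that count each captured RNA molecule once).

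The cells' label was compared with muscle markers before the results. The summed level of 10 myogenic markers was 480, 2421 and 400 counts-per-million (CPM) in young replicates 1, 2 and 3, and 425, 1848 and 3648 CPM in old replicates 1, 2 and 3. Myogenic markers were therefore low in young 1, young 3 and old 1 and high in young 2, old 2 and old 3, in a division that crosses the age groups. Endothelial markers summed to 59.4 CPM in young 2, of which Tek made up 58.9 CPM, and to 1.72 CPM or less in the others, and immune markers to 8.20 CPM at the highest. The 3 tendon markers, nearly all Scx, summed to 125, 282 and 213 CPM in young 1, 2 and 3 and to 129, 304 and 249 CPM in old 1, 2 and 3, and were highest in the samples with high myogenic markers. Their part in the levels of Six4, which was highest in the same samples, was not tested. The 8 fibro-adipogenic markers summed to between 206 and 434 CPM. Gsn was the highest of them in every sample, from 198 of 434 CPM in young 2 to 317 of 349 CPM in old 2. Any pair of libraries shared 23 to 35 cell barcodes among its kept cells.

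The promoters of Myog and Six4 are shown because both hold the MEF3 box, the DNA element that Six-family proteins bind in muscle genes. The sequences are RefSeq windows on build GRCm38.p6, from 250 bases before to 50 bases after a start site, written 5′ to 3′ along the gene's own strand. Capitals mark the MEF3 letters TCAGGTTTC, or their reverse complement GAAACCTGA, and matches to the E-box CANNTG, the element bound by Myod1 and Myog.

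Myog, chr1:134289754-134290053, plus strand: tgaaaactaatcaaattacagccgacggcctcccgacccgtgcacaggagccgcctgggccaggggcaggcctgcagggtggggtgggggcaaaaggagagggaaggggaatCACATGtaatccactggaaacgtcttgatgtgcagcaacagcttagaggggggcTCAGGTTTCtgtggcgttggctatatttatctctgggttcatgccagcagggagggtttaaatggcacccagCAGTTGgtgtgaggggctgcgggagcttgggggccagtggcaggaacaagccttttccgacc

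Six4, start site 1, chr12:73113196-73113495, minus strand: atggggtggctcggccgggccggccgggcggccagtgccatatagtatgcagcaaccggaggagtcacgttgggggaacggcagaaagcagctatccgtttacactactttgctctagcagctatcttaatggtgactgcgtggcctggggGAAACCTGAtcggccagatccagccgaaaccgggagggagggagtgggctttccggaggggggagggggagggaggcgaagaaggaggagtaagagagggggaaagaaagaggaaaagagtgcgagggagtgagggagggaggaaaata

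In the Myog window the MEF3 letters begin 84 bases before the start site, and E-box matches begin 138 bases (CACATG) and 12 bases (CAGTTG) before it. In the Six4 window the MEF3 letters lie on the opposite strand and begin 99 bases before start site 1. The MEF3 letters, searched on both strands, occur in 141 of 32851 promoter windows (0.429%), and the E-box letters in 72.3% of them. The table held 8 windows of 6 genes, including 5 of the 7 factors: Six2, Six4, Six5, Eya3 and Eya4. No MEF3 match was found in the windows of Six2, Six5, Eya3 and Eya4 or in that of the other Six4 start site, and E-box matches were found in those of Eya3 (CAACTG) and Eya4 (CACTTG). These are letter matches in short windows, and binding was not measured.

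The 7 genes lie on separate chromosomes (GRCm38, GENCODE M21). Six2 is at chr17:85684277-85688274, Six4 at chr12:73099609-73113456 and Six5 at chr7:19094594-19098549. Eya1 is at chr1:14168954-14310235, Eya2 at chr2:165595032-165771727, Eya3 at chr4:132638987-132724765 and Eya4 at chr10:23102963-23350786. Each is a protein-coding gene. The Eya genes span 85779 to 247824 bases and the Six-family genes 3956 to 13848 bases. Predicted genes overlap Eya1, Eya2 and Eya4, so reads there may be split in ways that depend on the counting, whose annotation is not given in the sources used here. Counts made from 3′ ends give no basis for ranking the 7 genes against each other, so levels are compared within a gene only.

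The members differed widely in how much they varied between samples. Levels are in CPM of counts summed over the kept cells of a sample and scaled with TMM (trimmed mean of M values) factors. In such sums, fewer expressing cells and less RNA per cell cannot be told apart, and the shares of cells are given further on. The highest sample was 381 times the lowest for Six2, 9.38 times for Eya1, 6.26 times for Eya4, 3.88 times for Six5, 3.46 times for Eya2, 3.45 times for Six4 and 1.54 times for Eya3. In the plot of levels by sample, the points of Six2 are far apart as a ratio and those of Eya3 close together.

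**Figure D1:**
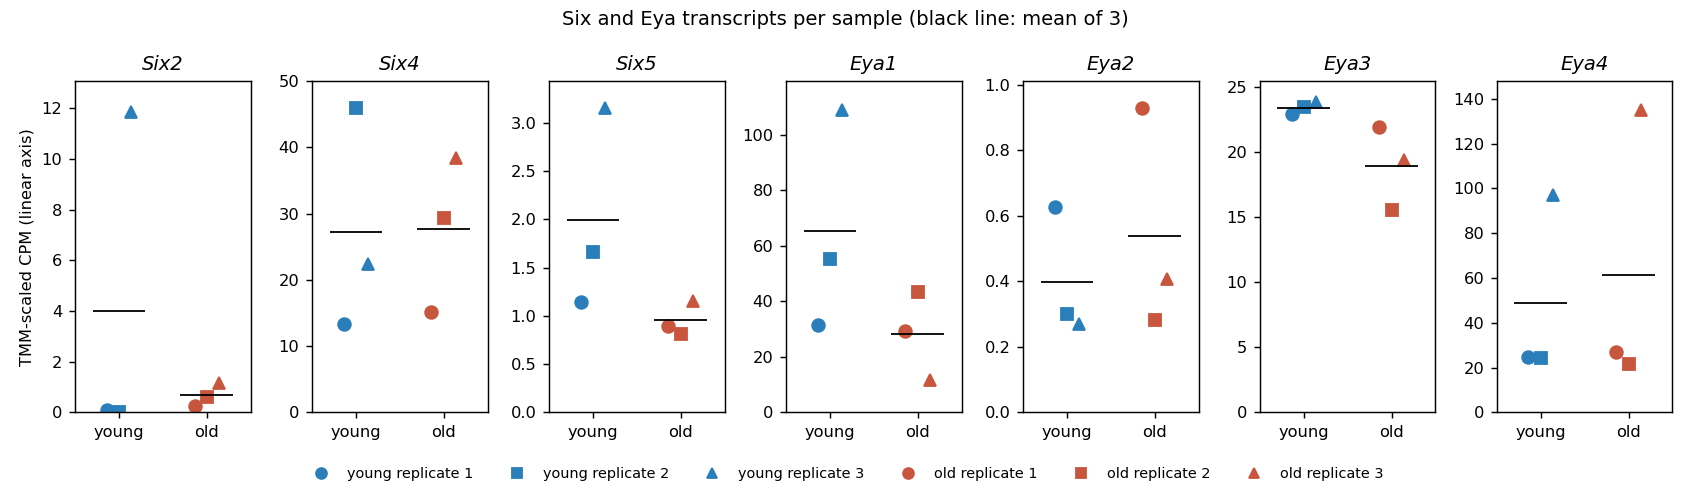
Level of each gene in each sample, in TMM-scaled CPM on a linear axis from 0 with its own range for each gene. Points are samples, with colour for young or old and shape for the replicate number, and black lines are the means of 3. Six2 stands at 11.9 CPM in young 3 and at 1.17 CPM or less in the other 5 samples, while Eya3 lies between 15.5 and 23.8 CPM throughout.

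Six2, known for keeping kidney progenitors undifferentiated, was a gene of 1 sample. Its levels were 0.0795, 0.0311 and 11.9 CPM in young 1, 2 and 3 and 0.250, 0.588 and 1.17 CPM in old 1, 2 and 3. Young 3 was high and the groups overlapped, since the other young samples lay below every old sample. The counts behind these levels were 9, 6 and 2425 among young and 42, 109 and 201 among old samples. At 5000 UMIs per cell, 5.83% of the cells of young 3 had a Six2 UMI, against 0.00939% to 0.526% in the other samples.

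Six4, a Six-family factor of muscle precursors that binds the MEF3 box, was present in every sample. Its levels were 13.4, 46.0 and 22.4 CPM among young and 15.2, 29.3 and 38.4 CPM among old samples. Young 2, old 3 and old 2, in that order, were the highest, and the groups overlapped. Those 3 samples are also the ones with high Myod1, at 460, 963 and 448 CPM against 42.3 to 59.9 CPM in the other 3. Myog likewise stood at 346, 990 and 170 CPM in young 2, old 3 and old 2 and at 5.64 to 33.6 CPM in the rest. Six5, which lies just downstream of the myotonic dystrophy kinase gene Dmpk on the same strand, was scarce, at 1.15, 1.67 and 3.15 CPM among young and 0.894, 0.814 and 1.15 CPM among old samples. Young 3 was the highest for Six5, and young 1 lay inside the range of the old samples. Dmpk itself, whose annotated end does not reach Six5, was lowest in young 3, at 23.8 CPM, and between 56.5 and 89.6 CPM in the other 5 samples.

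Eya1, the co-activator best known from ear, kidney and early muscle development, ranged from 11.6 to 108.8 CPM. Its levels were 31.6, 55.2 and 108.8 CPM among young and 29.3, 43.3 and 11.6 CPM among old samples. Young 3 was the highest and old 3 the lowest, with the other 4 between 29.3 and 55.2 CPM and the groups overlapping. Eya4, known as a deafness and heart muscle gene in humans, was at 24.9, 24.2 and 97.0 CPM among young and 26.9, 21.6 and 135.2 CPM among old samples. Replicate 3 of each group was high and the remaining 4 samples lay within 21.6 to 26.9 CPM. Eya1 and Eya4 were thus both high in young 3 and parted in old 3, where Eya4 was at its highest and Eya1 at its lowest.

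Eya3, a broadly expressed member, was the most even. Its levels were 22.9, 23.5 and 23.8 CPM among young and 21.9, 15.5 and 19.3 CPM among old samples. All young samples lay above all old ones, by a gap of less than the spread within the old group. Without TMM scaling the groups overlapped, at 19.4, 23.4 and 25.8 CPM among young and 24.3, 16.2 and 18.3 CPM among old samples. Eya3 was 1 of 7 members whose groups did not overlap, where 6.05% of all 14512 genes tested did not. Eya2 was barely detected, at 0.627, 0.301 and 0.269 CPM among young and 0.930, 0.280 and 0.406 CPM among old samples. Replicate 1 was the highest of each group, and the groups overlapped. The replicate 1 samples were also the only ones counted with Cell Ranger 7.0.0, on 21849 features against 32285. Sample and counting cannot be told apart here.

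Old against young was tested over all genes with edgeR's quasi-likelihood test, with a term for the gene list each sample was counted on. All 7 genes passed the filter on low counts, although Six2 had few counts outside young 3. None was called at a Benjamini-Hochberg adjusted p of 0.05 (0 of 7, and 0 of 7 at an unadjusted p under 0.05), where 1 of 14512 genes was called (0.00689%, which was higher in old). DESeq2 called 270 of the 18797 genes with any count, and again 0 of the 7. Its own filter can leave genes without an adjusted p, so 18797 may exceed the number it could call. At an unadjusted p under 0.05 edgeR had 512 of all genes, and DESeq2 had 1240 of all genes and 1 of the 7 members. The log2 fold changes, old over young with their standard errors (SE), were -1.58 (SE 2.19) for Six2, 0.05 (0.32) for Six4, -0.98 (0.57) for Six5, -1.10 (0.63) for Eya1, 0.37 (0.53) for Eya2, -0.31 (0.21) for Eya3 and 0.29 (0.79) for Eya4. Every adjusted p by edgeR's quasi-likelihood test was 1.00.

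Single samples set some of these directions. Without young 3 the Six2 value was 3.33 in place of -1.58, and with the replicate number as a block in place of the gene list it was 1.10. The Eya4 value was 0.99 without young 3, -0.13 without young 2 and -0.78 without old 3. The Eya1 value lay between -1.59 and -0.57, and was nearest 0 without old 3. The Six4 value, close to 0, changed sign in 4 of the 6 fits that left out a sample, between -0.18 and 0.41. The median fold change was -0.31 over the 7 members and -0.01 over all genes tested.

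The share of cells with at least 1 UMI was read after each cell was thinned at random to 5000 UMIs, so that depth did not set it. Young 1, 2 and 3 and old 1, 2 and 3 are given in that order. Six4 was detected in 5.90%, 21.3%, 11.2%, 7.99%, 14.2% and 17.1% of cells. Eya1 was detected in 13.1%, 21.3%, 41.0%, 14.2%, 18.7% and 5.27% of cells. Eya4 was detected in 10.7%, 9.91%, 37.6%, 13.1%, 10.8% and 45.2% of cells. The samples thus kept the order they had by level for the highest and the lowest sample of Six4 and Eya1. Eya3 was found in 7.97% to 11.5% of cells, Six5 in 0.468% to 1.75% and Eya2 in 0.150% to 0.283%.

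The Wilson 95% intervals of these shares were at most 1.87 percentage points wide and cover counting error only. Exact two-sided permutation tests of old against young shares gave p-values from 0.2 to 1, and 0.7 to 1 after Benjamini-Hochberg adjustment over the 7 genes. With 3 samples against 3 the smallest p this test allows is 0.1. No cell class in these cultures is known to lack the 7 genes, so the contribution of free RNA to the shares was not tested.

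The observed share of cells was set beside the share that the same UMIs would give if each cell had an equal chance of each. This ratio was 96.6% to 98.3% for Six4, 98.0% to 99.7% for Eya3, 90.2% to 96.8% for Eya1 and 82.0% to 92.1% for Eya4 over the 6 samples. For Six2 and Six5 it was near 100%, but it rested on as few as 1 cell (Six2) and 45 cells (Six5) with a UMI, so it says little about their spread. Eya2 ran from 57.3% to 100.1%, and was lowest in old 1, where 0.283% of cells (28 cells) had a UMI against 0.493% for an even spread. Eya4 reached lower values than Six4, Eya3 and Eya1. For comparison, the ratio was 55.9% to 93.2% for Myod1 and 18.0% to 46.2% for Myog, whose UMIs were found in fewer cells than an even spread gives. A gene with few UMIs per cell can have a ratio near 100% without being evenly spread. The values of Six4 and Eya3 therefore do not show an even spread. Between 29.0% of cells (young 3) and 66.5% (young 1) had no UMI of any of the 7 genes at this depth.

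**Figure D2:**
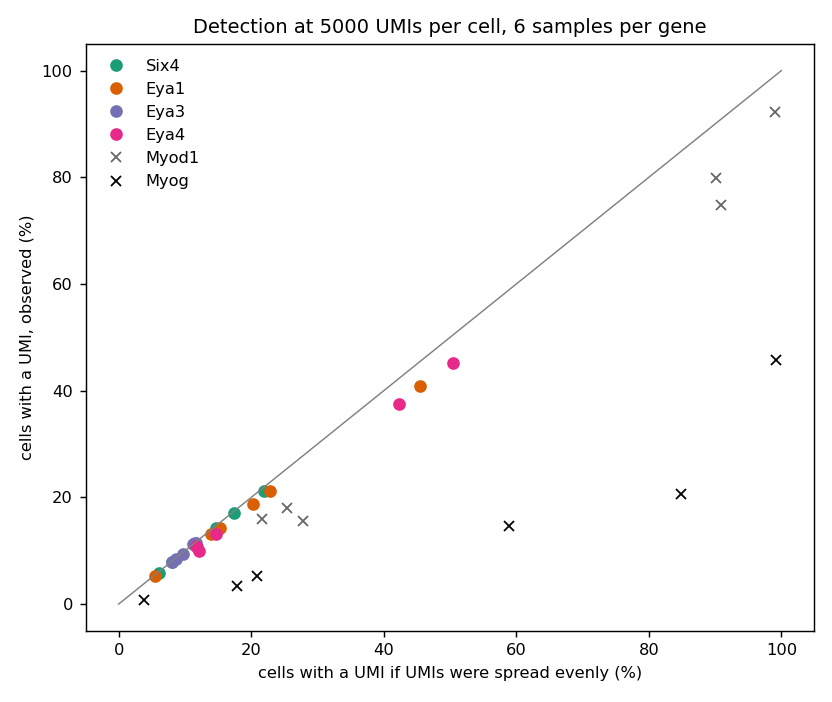
Share of cells with a UMI at 5000 UMIs per cell (vertical axis, %) against the share expected if the same UMIs were spread evenly over cells (horizontal axis, %), with 1 point for each gene and sample and a grey line where both are equal. The points of Six4 and Eya3 lie on or just under the line, those of Eya4 further under it (82.0% to 92.1% of the even share) and those of Myog far below (18.0% to 46.2%). A gene with few UMIs per cell can lie near the line without being evenly spread.

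Next, each member was compared between cells with and without Myog, within each sample. Cells with a Myog UMI at 5000 UMIs numbered 294, 2194 and 566 in young 1, 2 and 3 and 69, 1245 and 5578 in old 1, 2 and 3. Six4 and Eya4 were higher and Eya1 was lower in the Myog-positive cells of every sample. These 3 of the 7 genes passed the test, where 33.3% of 14872 genes did (13.6% higher and 19.6% lower), so that members were called about as often as genes at large. DESeq2 called 3 of the 7 as well, and 5385 of the 18789 genes with any count (2507 higher and 2878 lower).

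Eya4 stood, in Myog-positive against Myog-negative cells, at 57.9 against 23.2, 43.1 against 19.9 and 125 against 95.3 CPM in young 1, 2 and 3. In old 1, 2 and 3 it stood at 58.4 against 26.5, 25.8 against 20.8 and 169 against 110 CPM. Positive cells were higher in all 6 samples, by least in old 2 and young 3. The log2 fold change was 0.80 (SE 0.14, adjusted p = 0.00457 by edgeR's quasi-likelihood test, Benjamini-Hochberg).

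Six4 stood at 28.4 against 12.8, 57.9 against 43.7 and 30.1 against 22.0 CPM among young samples. Among old samples it stood at 28.7 against 15.1, 39.6 against 27.4 and 40.7 against 37.4 CPM. It was higher in the positive cells of all 6 samples, and least so in old 3. The log2 fold change was 0.55 (SE 0.12, adjusted p = 0.00811 by edgeR's quasi-likelihood test).

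Eya1 went the other way, at 18.6 against 31.9, 32.7 against 60.9 and 88.5 against 109.8 CPM among young samples. Among old samples it stood at 20.1 against 29.2, 23.9 against 46.3 and 9.56 against 13.4 CPM. It was lower in the positive cells of all 6 samples, although its overall level in them differed many times over. The log2 fold change was -0.67 (SE 0.10, adjusted p = 0.00135 by edgeR's quasi-likelihood test). For Eya3 it was -0.15 (SE 0.07, adjusted p = 0.142), for Six2 -0.33 (0.26, 0.373), for Six5 -0.23 (0.21, 0.437) and for Eya2 0.19 (0.36, 0.735) in the same edgeR fit.

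**Figure D3:**
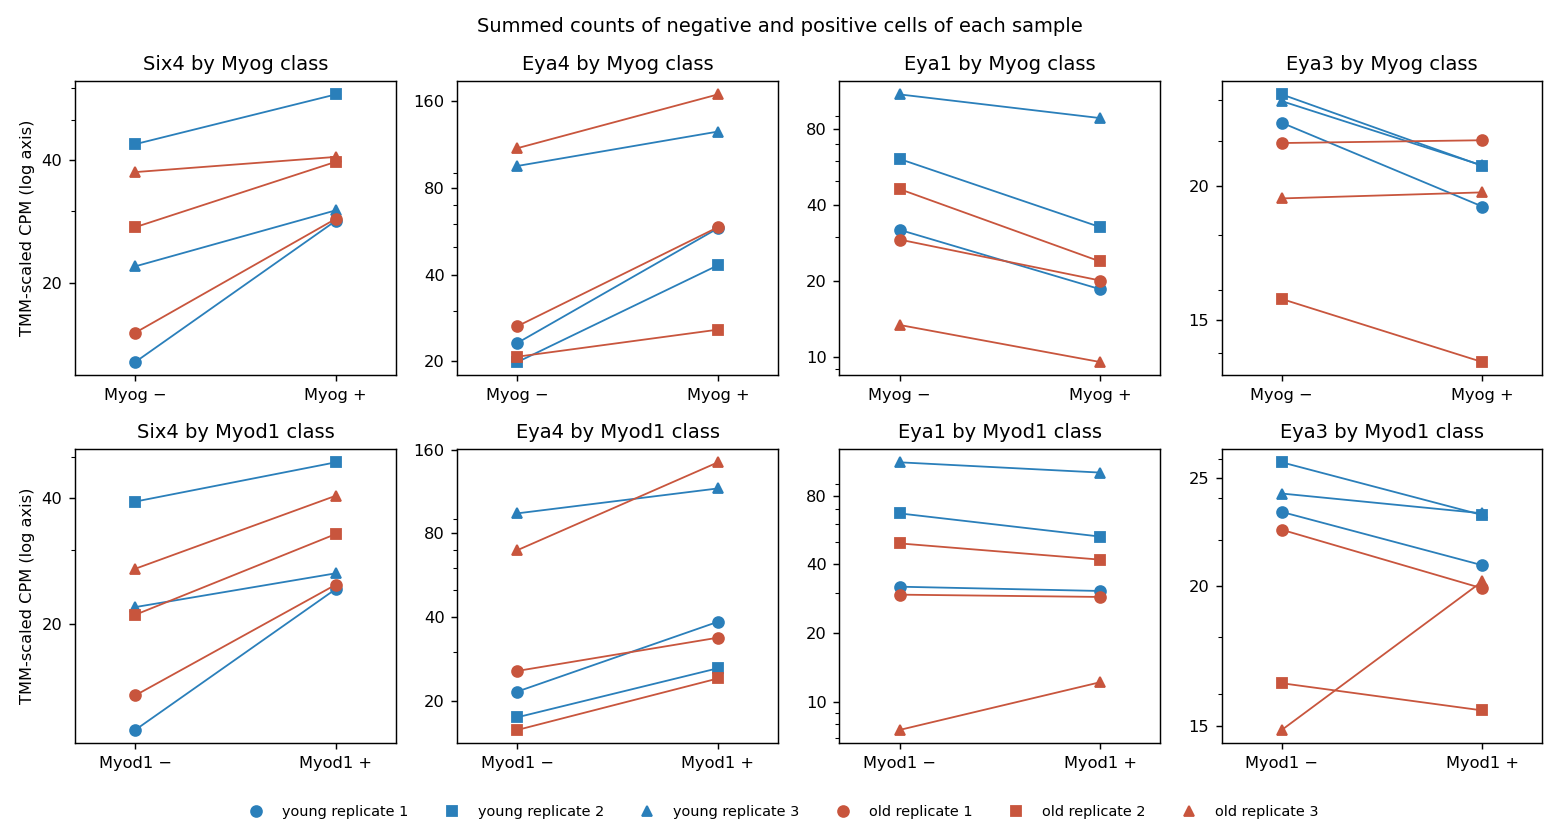
Level of Six4, Eya4, Eya1 and Eya3, in TMM-scaled CPM on a log axis, in cells without and with a UMI of Myog or of Myod1, with 1 line for each sample. The lines of Eya4 and Six4 rise for both factors in all 6 samples, and those of Eya1 fall for Myog in all 6.

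Mki67 and Top2a, which dividing cells express, were detected in fewer of the Myog-positive cells. A UMI of either was found in 14.6%, 23.2% and 57.6% of Myog-positive cells among young and 27.5%, 8.59% and 34.5% among old samples. Among Myog-negative cells the shares were 37.1%, 41.6% and 61.3% among young and 65.2%, 28.3% and 46.5% among old samples. The share was lower in the positive cells of each sample, by least in young 3. By level, Mki67 was lower in the positive cells of 5 samples and stood at 75.8 against 75.3 CPM in young 3, and Top2a at 245.8 against 234.6 CPM there. Among cells with neither UMI, the log2 fold changes were 0.90 for Eya4, 0.62 for Six4 and -0.81 for Eya1, with adjusted p-values of 0.00290, 0.00780 and 0.000354 by edgeR's test, so each was at least as large as in all cells.

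The same comparison was made for Myod1. Six4 and Eya4 were again higher in the positive cells of all 6 samples, and Eya1 did not pass the test. These 2 of 7 members were called where 3.42% of 14896 genes were (2.54% higher and 0.879% lower).

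Six4 stood, in Myod1-positive against Myod1-negative cells, at 24.2 against 11.2, 48.5 against 39.1 and 26.4 against 21.9 CPM among young samples. Among old samples it stood at 24.8 against 13.5, 32.7 against 21.0 and 40.4 against 27.1 CPM. The log2 fold change was 0.62 (SE 0.11, adjusted p = 0.0305 by edgeR's quasi-likelihood test). The gap was widest, as a ratio, in young 1 and old 1.

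Eya4 stood at 38.5 against 21.6, 26.2 against 17.4 and 116 against 94.5 CPM among young samples. Among old samples it stood at 33.7 against 25.6, 24.0 against 15.7 and 144 against 69.6 CPM. Every sample was higher in the positive cells, and old 3 had the widest gap. The log2 fold change was 0.63 (SE 0.10, adjusted p = 0.0194 by edgeR's quasi-likelihood test).

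These Myod1 calls were lost in more of the fits that left out 1 sample than those for Myog. Six4 missed the threshold without young 1 (0.52), old 1 (0.57) or old 2 (0.62), and Eya4 without young 1 (0.58) or old 2 (0.63). Calls over all genes fell in the same fits, from 509 to 58 without young 1, 98 without old 1 and 36 without old 2. Among Myog-negative cells alone, neither passed edgeR's test, at 0.56 for Six4 (adjusted p = 0.114) and 0.57 for Eya4 (adjusted p = 0.120). Only 6 of 14599 genes were called there. The fold change for Eya1 was -0.05 (SE 0.12, adjusted p = 0.866 by edgeR's test), with positive cells lower in 5 samples and higher in old 3, at 12.2 against 7.56 CPM. For the others it was 0.12 (Six2), 0.06 (Six5), 0.43 (Eya2) and -0.04 (Eya3).

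**Figure D4:**
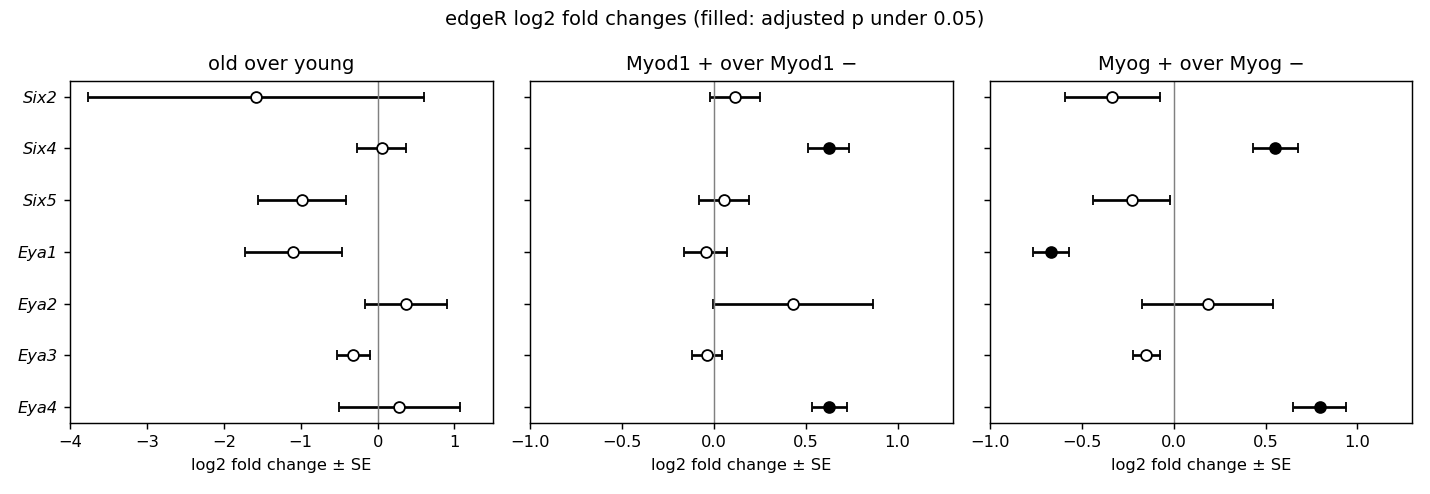
Log2 fold change of each of the 7 genes with its SE as a bar, in 3 panels for old over young, Myod1-positive over Myod1-negative cells and Myog-positive over Myog-negative cells. Genes called at an adjusted p of 0.05 are filled: none in the first panel, Six4 and Eya4 in the second, Six4, Eya1 and Eya4 in the third.

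Cells were then divided by the UMIs left after thinning into those with neither factor, with Myod1 only and with both. Those with Myog only were left out (18 to 269 cells per sample). A factor not detected after thinning may still be present, so the states are not a measured order of differentiation. Myod1-negative cells numbered 6923, 2138 and 8926 in young 1, 2 and 3 after thinning, and 6065, 561 and 7070 by the deposited counts. In old 1, 2 and 3 they numbered 8370, 2141 and 934 after thinning, and 7782, 853 and 520 by the deposited counts. In unscaled CPM, Eya4 in old 3 stood at 51.0, 114.9 and 151.7 in these 3 states, and in young 1 at 17.5, 31.0 and 61.0. Eya4 rose in value from each state to the next in 6 of 6 samples and Six4 in 5 of 6. The exception was Six4 in old 3, at 26.6, 37.6 and 36.9 CPM. In the cells with Myog only, Eya4 stood at 41.6, 30.5 and 99.2 CPM in young 1, 2 and 3. In old 1, 2 and 3 it stood at 35.5, 29.5 and 138.9 CPM. With neither factor Eya4 was at 17.5, 16.5 and 100.9 CPM among young and 28.0, 16.2 and 51.0 CPM among old samples. It was lower with Myog only than with neither in young 3 alone.

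Eya1 was at 26.7, 28.6 and 14.3 CPM in young 1 and at 7.02, 13.9 and 8.56 CPM in old 3. It was lower with both factors than with Myod1 only in 6 of 6 samples, and higher with Myod1 only than with neither in 3 of 6. For the latter, old 1 rose only from 32.3 to 32.6 CPM. The cells with both factors held only 10 Eya1 counts in old 1 and 32 in young 1. With both factors Eya1 was also lower than with neither in 5 of 6 samples, old 3 being the exception. In the cells with Myog only, Eya1 stood at 19.7, 45.6 and 110.5 CPM in young 1, 2 and 3. In old 1, 2 and 3 it stood at 39.1, 50.2 and 8.82 CPM. With neither factor it was at 26.7, 70.3 and 119.7 CPM among young and 32.3, 52.5 and 7.02 CPM among old samples. Eya1 was thus higher with Myog only than with neither in old 1 (18 cells) and old 3, and lower in the others.

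Tested as steps with edgeR, the first step (neither to Myod1 only) called 0 of the 7 members and 12 of 13847 genes (0.0867%). Six4 and Eya4 had an unadjusted p under 0.05 there. Six4 stood at 0.55 (adjusted p = 0.0900) and Eya4 at 0.57 (adjusted p = 0.101). The second step (Myod1 only to both) called 34.2% of genes and 4 of the 7 members by edgeR's test: Eya4 at 0.72 (adjusted p = 0.00218), Eya1 at -0.76 (0.00369), Six4 at 0.41 (0.0300) and Six2 at -0.61 (0.0245). The Six2 call was lost without young 3, which holds most of its counts (-0.70, adjusted p = 0.0925 by edgeR), and without old 2 (-0.47, 0.123). The Six4 call held without old 3 (adjusted p = 0.0259 by edgeR) and was lost without each of the other samples in turn. In those fits its adjusted p by edgeR ran from 0.0500 to 0.0906 and its value from 0.32 to 0.43.

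The difference between the steps called 2.34% of genes and none of the members (0 of 7 by edgeR, with 2 at an unadjusted p under 0.05). It was -0.80 for Eya1 (adjusted p = 0.134), and leaving out old 3 gave -0.74 with an adjusted p of 0.0493 by edgeR, while leaving out each of the other 5 samples gave adjusted p-values from 0.14 to 0.272. It was -0.14 for Six4 (adjusted p = 0.796) and 0.15 for Eya4 (0.801), so no difference between the steps was shown for any of the 3 over all samples.

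**Figure D5:**
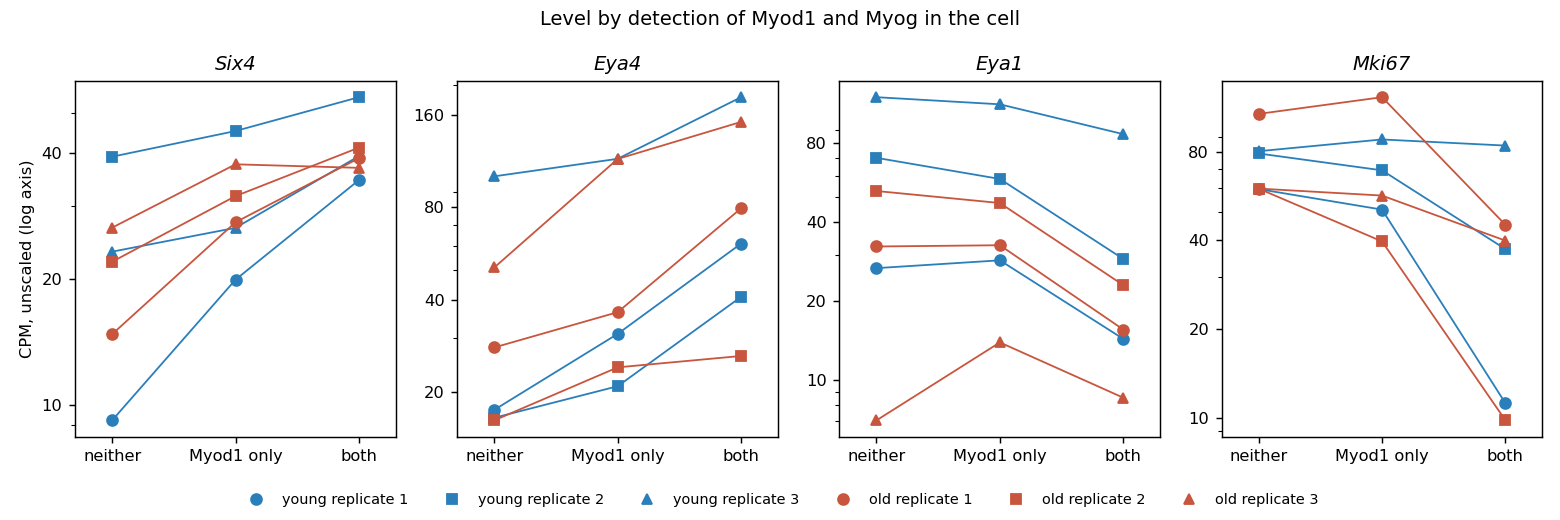
Level of Six4, Eya1 and Eya4, in CPM without TMM scaling on a log axis, with 1 line for each sample. The states are cells with a UMI of neither Myod1 nor Myog after thinning, of Myod1 only and of both. Eya4 climbs across the states in 6 of 6 samples and Six4 in 5 of 6, and Eya1 drops from the Myod1-only state to cells with both in 6 of 6.

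The class differences were then compared between old and young with an interaction term. No gene was called for Myog (0 of 14872, with 495 at an unadjusted p under 0.05) or for Myod1 (0 of 14896, with 523 at an unadjusted p under 0.05) by edgeR. None of the 7 members had an unadjusted p under 0.05 in either, so a difference between the age groups in these responses was not shown.

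Counting cells in place of molecules gave a similar picture. Co-detection was taken as the number of cells with a UMI of both genes over the number expected if the genes were detected independently in that sample, at 5000 UMIs per cell, as a description with no test. Eya4 and Myog were found together in 3733 cells, against 3129 expected, with a mean ratio of 1.51 ± 0.475 (SD, n = 6) and a ratio above 1 in 6 of 6 samples. Six4 and Myog were found together in 1856 cells against 1682 expected, at a mean of 1.41 ± 0.439 (SD, n = 6). The lowest Six4 ratio, 1.01 in old 3, was about what independent detection gives, and the other 5 ran from 1.16 to 2.25. Eya1 and Myog were found together in 823 cells against 1274 expected, at 0.652 ± 0.122 (SD, n = 6) and below 1 in 6 of 6.

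With Myod1 the mean ratio was 1.32 ± 0.389 for Six4 and 1.22 ± 0.240 for Eya4 (SD, n = 6), each above 1 in 6 of 6 samples, and 0.970 ± 0.0346 for Eya1, above 1 in 1 sample. The ratio is bounded where most cells hold the partner, and in old 3, where 92.3% of cells had a Myod1 UMI, it was 1.02 for Six4 and 1.03 for Eya4. In young 1, where 18.0% of cells did, it was 1.95 and 1.65. Between the members, Six4 and Eya4 were found together in 2218 cells against 1899 expected, from 1.12 to 1.66 times the expected number and above 1 in 6 of 6 samples. Eya3 and Eya4 (1.11 to 1.35) and Eya1 and Eya3 (1.03 to 1.20) were also above 1 in 6 of 6. Eya1 and Eya4 lay between 0.864 and 1.36.

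Other genes of the pathway were read from lists. Partners and relatives of the Six-family and Eya factors were the corepressors Dach1 and Dach2, the paired-box factors Pax3 and Pax7, Sobp, the phosphatase substrate H2afx and further Six-family genes, of which 7 were tested. In Myog-positive cells 4 of 7 fell and none rose, beside 19.6% lower and 13.6% higher over all genes tested, and the largest changes were in Dach1 (-1.10, adjusted p = 0.00363) and H2afx (-0.71, adjusted p = 0.00531) by edgeR's test. In Myod1-positive cells 1 of 7 fell, Dach1 (-0.65, adjusted p = 0.0471 by edgeR's test), beside 0.879% lower over all genes. The median of the list was -0.54 in the first comparison, beside -0.08 over all genes tested.

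Of 10 genes reported as Six-family targets, 4 rose and 4 fell in Myog-positive cells, beside the same 13.6% and 19.6% over all genes. Among the called targets, troponin C (Tnnc1, 6.28) and Myod1 (1.75) rose most, and the cytoskeletal linker Ezr (-0.99) and the cyclin Ccnd1 (-0.90) fell most. In Myod1-positive cells Myog rose (3.26) and Ezr fell (-0.30), and the other 8 did not pass edgeR's test. Among those 8 the values reached 2.42 for Tnnc1 (adjusted p = 0.0615 by edgeR) and 1.65 for Igfbp5 (0.0969), each higher in the positive cells of 6 of 6 samples. The median of the targets was 0.11 for Myod1, where 2.54% of all genes rose and 0.879% fell. The median of these targets was 0.50 for Myog, beside the same -0.08 over all genes. In Myog-positive cells, where 13.6% of all genes rose and 19.6% fell, all 11 muscle differentiation genes rose, led by the actin Actc1 (8.15) and the embryonic myosin Myh3 (7.90), and 5 of 7 proliferation genes fell, led by Mki67 (-0.89) and Cdk1 (-0.88). In Myod1-positive cells, where 2.54% of all genes rose and 0.879% fell, 2 of 11 differentiation genes rose, Mef2c (1.04) and Tnnt2 (0.85). The median of the 11 was 2.63, beside -0.01 over all genes, and the 9 that did not pass edgeR's test had values from 0.82 (Cdkn1c) to 2.99 (Acta1). In the same cells 0 of 7 proliferation genes passed edgeR's test, with 1 at an unadjusted p under 0.05 (Mcm5). No gene of the 4 lists was called between old and young by edgeR or DESeq2, with 1 at an unadjusted p under 0.05 in edgeR (Dach2).

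Across the 6 samples, the genes most like each member were taken from genes with a mean log2 CPM above 5, by Pearson's r of log2 CPM. Over 3948 genes compared (3947 for Eya1 and Eya4) and 6 samples, high values arise among unrelated genes, and they share library and depth. Six4 was most like Hip1 (r = 0.998), Tcf12 (0.993) and St3gal1 (0.990), Eya1 most like Apbb2 (0.974), Paics (0.970) and Fndc3b (0.969), and Eya4 most like Klhdc10 (0.977), Uchl3 (0.969) and Ska2 (0.944). Gcsh was nearest to Six2 (0.976), Calu to Six5 (0.992), Gtf2f1 to Eya2 (0.990) and Eif3e to Eya3 (0.979).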

How the data were processed

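For each of 6 samples the authors deposited a matrix of raw UMI counts for genes and barcodes, from Cell Ranger 7.0.0 (young and old replicate 1) or 7.2.0 (the other 4), per the file headers. The submitters' processing notes name Cell Ranger 7.2.0 and the build mm10. The annotation and the use of intronic and antisense reads are not given in the sources used here. The 7.0.0 matrices list 21849 features and the others 32285, and the 21485 shared identifiers were used, which hold 98.5% to 99.9% of the UMIs of kept cells. The deposited matrices held 133974782 to 196481316 UMIs per sample.

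Of 62849 barcodes, 61673 were kept, with at least 1000 UMIs, at least 500 genes and under 15% of UMIs from 13 mitochondrial genes. Doublets were neither called nor removed, and an alternative leaves out the 10% of cells with the most UMIs. Shares, classes and co-detection used cells thinned to 5000 UMIs with a fixed seed, which left out 149 to 373 cells per sample. No SD or test treats cells as replicates.

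Counts summed per sample, or per class within a sample, went into edgeR 4.0.16 (R 4.3.3) with TMM factors, filterByExpr and the two-sided robust quasi-likelihood test, adjusted by Benjamini-Hochberg over all genes tested at a threshold of 0.05. The age fit had a term for the gene list, the class fits a term for the sample. DESeq2 1.42.0 was an alternative, beside other scaling, filters, sample choices, class rules and depths. Splitting cells by both factors, restricting cells by Myod1, Myog, Mki67 or Top2a, and the interaction with age were chosen after seeing the data. Standard errors are model-based. Python 3.11.15 and scipy 1.17.1 were used for shares and exact tests. The scripts were tested on simulated data.

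The members and the lists were chosen with earlier results of these data known. The text names the 7 members, Myod1, Myog, Mki67 and Dmpk, the 2 called genes of largest change in each direction from each list, and the 3 genes of highest correlation with a member. Dach2, Mcm5, Cdkn1c, Acta1, Igfbp5, Tnnc1 for Myod1 and the marker genes outside that rule were named after their values were seen. Sobp, Pax3 and the rest of the partner list are named as list members, and 1 gene of that list and 1 of the target list are not reported here. One of the 2 identifiers with the symbol Aldoa was left out. RefSeq promoter windows are on GRCm38.p6, and gene positions are from GENCODE M21.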

Additional observations from a re-analysis of the deposited data

How the results depend on the processing

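Log2 fold changes are meant unless a count, share or ratio is named, and no member was called between old and young under any alternative run. For old against young, Six2 reversed to 1.10 with the replicate block and Six4 to -0.016 in the samples on the longer gene list. The number of genes called was 270 with DESeq2, 2 with library size scaling, 0 without the gene list term and 0 on the longer list. Leaving out 1 sample at a time gave -2.76 to 3.33 for Six2, -0.18 to 0.41 for Six4, -0.78 to 0.99 for Eya4 and 0 to 3 genes called. Old minus young shares of cells were -1.65 percentage points for Six2, 0.289 for Six4, -12.4 for Eya1 and 3.63 for Eya4 over all samples. Leaving out 1 sample at a time, they ran from -2.62 to 0.294 for Six2 and -3.16 to 4.53 for Six4. For Eya1 they ran from -18.4 to -4.47 and for Eya4 from -7.47 to 12.7. A pairing by replicate number was not shown. Same-numbered samples' deviations from their group means correlated at 0.38, 0.22 and -0.08, and those of the other pairs at -0.40 to 0.27. Deviations from means of 3 samples cannot settle whether samples are paired. With the block 1 gene was called.

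For Myog, without the sample term the values were 0.093 for Six2, 0.53 for Six4, -0.57 for Eya1 and 0.72 for Eya4, none called, and 155 genes were called. On the longer list 3257 were called. Six2 was -0.63 and called in Myod1-positive cells, and Eya2 was -0.072 with classes from the deposited counts and -0.068 to 0.46 leaving out samples. Six4, Eya1 and Eya4 kept direction and call under the other 16 alternatives.

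For Myod1, Six4 was not called with library size scaling (0.61), no sample term (0.56), the longer list (0.44) or Myog-negative cells only (0.56). Eya4 was not called with classes from the deposited counts (0.61), no sample term (0.65), the longer list (0.63) or Myog-negative cells only (0.57). Reversals of uncalled values were Six2 without the 10% of cells with most UMIs (-0.021), Eya1 in Myog-negative cells (0.056), Eya2 in cells without Mki67 or Top2a (-0.074), and Eya3 with classes from the deposited counts (0.0033) and on the longer list (0.023). Leaving out samples gave 0.52 to 0.70 for Six4, 0.54 to 0.70 for Eya4, -0.0029 to 0.14 for Six5 and -0.17 to 0.0095 for Eya1. The number of genes called was 2080 with DESeq2, 10 on the longer list and 802 without the 10% of cells with most UMIs. It was 922 with thinned sums, 214 with classes from the deposited counts, 1506 at 2 or more UMIs and 0 without the sample term. In cells without a UMI of Mki67 or Top2a it was 1019, in Myog-negative cells 6, and leaving out samples 36 to 790. For the 3 states, leaving out samples gave -0.091 to 0.095 for the Myod1 step of Eya1, and for Eya2 -0.11 to 0.41 (Myog step) and -0.64 to 0.061 (difference).

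Without thinning, co-detection was 1.02 in place of 0.970 (Eya1 and Myod1), 1.03 in place of 0.958 (Eya3 and Myod1), 1.02 in place of 0.281 (Six2 and Myog, from 44 cells) and 0.841 in place of 0.652 (Eya1 and Myog). The cause of these shifts was not tested. The value of 0.281 is an unweighted mean over samples that ran from 0 to 0.848. Six2 was found in only 1, 1 and 14 cells of young 1, young 2 and old 1, so the ratios there say little. Over all samples, Six2 and Myog were found together in 44 cells against 65.8 expected. Depth limits Eya2, with 52 to 156 UMIs per sample, and Six2 outside young 3, with 6 to 201.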
